A study of Mus musculus with 10 samples.

Results

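The 10 genes examined here encode mTOR, the defining subunits of its 2 complexes, its inhibitors and its best known targets in the control of translation: Mtor, Rptor, Rictor, Ddit4, Ddit4l, Deptor, Akt1s1, Rps6kb1, Eif4ebp1 and Eif4ebp2. They were chosen by name and matched by symbol to 10 of the 39179 gene identifiers in the count tables, and all 10 were among the 12690 genes tested. RNA came from the tibialis anterior (TA), a shin muscle rich in fast fibers, of 4 Control mice injected with buffer (PBS) and 6 mice injected in each flank with 750000 LLC cells, a mouse Lewis lung carcinoma line whose subcutaneous tumors lead to cachexia, the wasting of weight and muscle in cancer. The labels name no engineered allele and no further treatment in either group. The sample labels give the strain as C57BL/6J, an age of 10 weeks at injection and 23 days of tumor development for LLC and 0 for Control. The series description gives C57BL/10 males of 8 weeks studied after 22 days, and the sources used here do not settle which holds. Each mouse gave 1 library, and the 6 LLC mice were survivors of the full period.

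mTOR is a kinase that joins growth signals and amino acid supply to protein synthesis. With raptor (Rptor) it forms mTORC1, which phosphorylates the S6 kinase (Rps6kb1) and the 4E-BP proteins (Eif4ebp1, Eif4ebp2), releasing the cap-binding factor eIF4E for translation. With rictor (Rictor) it forms mTORC2, which acts on Akt. REDD1 (Ddit4), REDD2 (Ddit4l), DEPTOR (Deptor) and PRAS40 (Akt1s1) restrain mTORC1, and in skeletal muscle, where mTORC1 sustains fiber size, REDD1 is known as a transcript of stress, fasting and glucocorticoid exposure. Activity of these proteins is set largely by phosphorylation, which RNA does not measure.

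Total counts ranged from 16693209 to 21303084 per sample. Values below are CPM, counts per 1000000 after TMM scaling of the libraries. Fold changes compare LLC with Control in the quasi-likelihood test of edgeR, and p-values were adjusted by Benjamini-Hochberg over all tested genes. To be past the threshold a gene needed a fold change of 1.5 or more in either direction together with an adjusted p no higher than 0.05. LLC 1 stood apart on the first principal component of all tested genes, with a score of 77.1, followed by LLC 5 with 33.6, whereas the other LLC samples scored from -4.90 to 16.2 and Control from -30.7 to -28.0. The same libraries had the lowest mitochondrial shares of counts, 22.0% in LLC 1 and 22.9% in LLC 5, against 25.8% to 27.9% in the other LLC samples and 28.4% to 30.7% in Control. The summed level of 6 muscle fiber markers was 70651 CPM in LLC 1, against 102071 to 115038 CPM in the other LLC samples and 105133 to 111844 CPM in Control.

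None of the 10 genes was past the threshold, against 5.63% of all tested genes in either direction. At an unadjusted p of 0.05 or less there were 4, namely Eif4ebp1, Ddit4, Akt1s1 and Rictor, all higher in LLC, beside 27.4% of all genes in either direction and 12.7% higher. With the same threshold the DESeq2 Wald test called 0 of the 10 (8.29% of all genes), and limma voom with quality weights called 1, Ddit4l (7.86%). The estimate was at least 1.5-fold for 3 genes, Ddit4, Eif4ebp1 and Ddit4l, all higher, against 14.7% of all tested genes in either direction and 6.05% higher. The median log2 fold change of the 10 was 0.25, beside 0.00193 over all tested genes, with 9 estimates above 0 and 1 below. In none of the 10 were the groups free of overlap, which 16% of tested genes were.

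**Figure D1:**
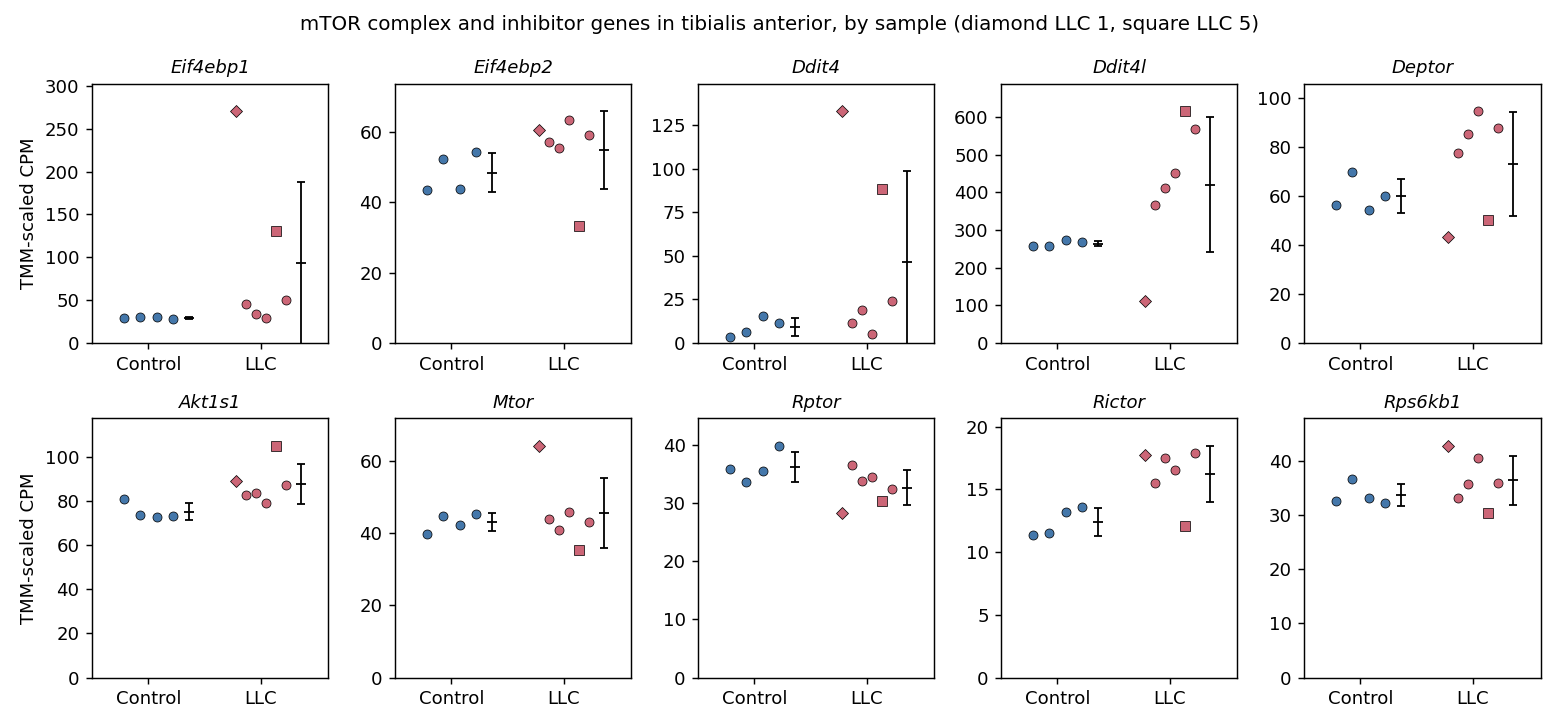
TMM-scaled CPM of each of the 10 genes in the 4 Control and 6 LLC samples, on linear axes that start at 0. Points are samples (diamond, LLC 1, square, LLC 5) and the black bar is the mean with SD, cut at 0 where it runs lower. Eif4ebp1 and Ddit4 are high in LLC 1 and LLC 5, while Ddit4l is low in LLC 1 and above all Control samples in the other 5.

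Among the translation repressors, Eif4ebp1 had a larger estimate than its paralog Eif4ebp2, but neither gene passed and nor did the test of their ratio given further on. Eif4ebp1 (ENSMUSG00000031490, mm10 chromosome 8, 27260329 to 27276674, plus strand) encodes 4E-BP1, which holds eIF4E away from its scaffold until mTORC1 phosphorylates it. In Control it stood at 29.0, 30.3, 30.1 and 28.2 CPM, a coefficient of variation (CV) of 3.26%. In LLC the lowest value was 28.7 CPM in LLC 4, the median 48.0 and the highest 270.4 CPM in LLC 1, with 131 CPM in LLC 5, a CV of 101%. Thus 5 of 6 LLC samples exceeded every Control sample, and LLC 4 lay within the Control range. The fold change was 3.17, or 1.67 ± 0.60 on the log2 scale (SE), and did not pass in edgeR (unadjusted p = 0.0175, adjusted p = 0.111). Without LLC 1 the log2 fold change was 0.99 ± 0.37 (SE) with an edgeR adjusted p of 0.0926, so this library moved the fold change from 3.17 to 1.98. The DESeq2 Wald test gave an adjusted p of 0.0676, and limma voom a smaller estimate of 0.53 with an adjusted p of 0.121.

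Eif4ebp2 (ENSMUSG00000020091, chromosome 10, 61428491 to 61452661, minus strand) encodes the related 4E-BP2. It measured 43.4, 52.3, 43.9 and 54.3 CPM in Control, and in LLC it ran from 33.2 CPM in LLC 5 over a median of 58.1 to 63.5 CPM in LLC 4. Here LLC 5 was the low sample and the other 5 exceeded all Control samples. Its log2 fold change was 0.18 ± 0.16 (SE; edgeR adjusted p = 0.480).

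The inhibitor genes Ddit4 and Ddit4l followed different patterns across the LLC mice. Ddit4 (ENSMUSG00000020108, chromosome 10, 59949669 to 59951834, minus strand) encodes REDD1, which acts through the TSC complex to switch off mTORC1. Control values were 3.44, 6.42, 15.7 and 11.2 CPM, a CV of 58.7%, the widest of the 10 genes in Control. In LLC the values ran from 5.09 CPM in LLC 4 over a median of 21.4 to 133 CPM in LLC 1, with 88.2 CPM in LLC 5. The groups overlapped, as LLC 2 and LLC 4 lay within the Control range and the other 4 above it. The log2 fold change was 2.35 ± 0.86 (SE), a 5.09-fold difference, the greatest estimate and the greatest SE of the 10 genes, and it did not pass in edgeR (unadjusted p = 0.0188, adjusted p = 0.115). Without LLC 1 the fold change was 3.25, at 1.70 ± 0.70 on the log2 scale (SE; edgeR adjusted p = 0.120). The DESeq2 Wald test on all samples gave an adjusted p of 0.0577, and limma voom a smaller estimate of 0.95 with an adjusted p of 0.235.

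Ddit4l (ENSMUSG00000046818, chromosome 3, 137621612 to 137628333, plus strand) encodes REDD2, a paralog of REDD1 found mainly in muscle. It was tightly held in Control, at 258, 257, 272 and 269 CPM, a CV of 2.88%. In LLC it was 110.5 CPM in LLC 1 and 366, 413, 451, 616 and 568 CPM in LLC 2 to LLC 6. Thus 5 LLC samples lay above every Control sample and LLC 1 lay below every one. The log2 fold change over all samples was 0.67 ± 0.35 (SE; edgeR adjusted p = 0.224). Without LLC 1 it was 0.88 ± 0.14 (SE), a 1.84-fold rise that passed the threshold (edgeR adjusted p = 0.00180), as 7.65% of all genes did in that fit. Under limma voom with quality weights, which lowers the weight of variable libraries, Ddit4l passed with all samples included, at 0.71 ± 0.13 on the log2 scale (SE; adjusted p = 0.00306). Leaving out any other single sample gave no call. LLC 1 was thus the highest LLC sample for Ddit4 and the lowest for Ddit4l, while LLC 5 was second for Ddit4 and the highest for Ddit4l.

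The 250 bases before the RefSeq start site (GRCm38.p6) are shown for this pair of paralogs, because their transcripts diverged in LLC 1. RefSeq promoter entries matched 8 of the 10 genes, all but Eif4ebp1 and Deptor. Capitals mark the CCAAT box (CCAAT, reverse ATTGG) and the GC box (GGGCGG, reverse CCGCCC), searched on both strands. The Ddit4 window is chr10:59951771-59952020, minus strand, and the Ddit4l window chr3:137623422-137623671, plus strand. RefSeq and GENCODE starts differ here, so that the Ddit4l window lies within the gene span given above and the Ddit4 window partly so.
Ddit4: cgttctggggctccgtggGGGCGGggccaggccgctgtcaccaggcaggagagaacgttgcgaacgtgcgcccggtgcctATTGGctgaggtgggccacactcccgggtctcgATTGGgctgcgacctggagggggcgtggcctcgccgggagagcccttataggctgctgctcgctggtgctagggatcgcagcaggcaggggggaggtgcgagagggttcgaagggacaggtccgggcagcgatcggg
Ddit4l: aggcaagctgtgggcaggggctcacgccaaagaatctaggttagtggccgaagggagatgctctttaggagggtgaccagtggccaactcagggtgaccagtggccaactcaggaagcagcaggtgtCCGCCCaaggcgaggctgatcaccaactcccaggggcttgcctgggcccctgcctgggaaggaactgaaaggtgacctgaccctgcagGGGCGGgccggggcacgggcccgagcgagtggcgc

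The Ddit4 window held 2 CCAAT boxes and 1 GC box, and that of Ddit4l held 2 GC boxes and no CCAAT box. Of all 32851 RefSeq promoter windows of this length, 33.8% held a CCAAT box and 32.7% a GC box, so both are common. CpG pairs numbered 22 in the Ddit4 window and 10 in that of Ddit4l, at a GC content of 70% and 65.2%. Neither window held the FoxO motif GTAAACA (in 3.17% of all windows), the ATF4 with C/EBP motif TGATGNAA (3.45%), the glucocorticoid receptor core ACANNNTGT (5.84%), the STAT motif TTCNNNGAA (7.02%) or the E-box CACGTG (6.02%), each searched on both strands. These are matches of letters in a short window and not measured binding.

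Deptor and Akt1s1 encode inhibitors that bind the complex itself. Deptor (ENSMUSG00000022419, chromosome 15, 55112317 to 55259271, plus strand), whose product binds mTOR in both complexes, measured 56.3, 70.0, 54.2 and 59.9 CPM in Control. In LLC it was lowest in LLC 1 at 43.4 CPM and LLC 5 at 50.3 CPM, both below every Control sample, with a median of 81.5 and a highest value of 94.6 CPM in LLC 4. The other 4 LLC samples lay above every Control sample. Deptor had a log2 fold change of 0.28 ± 0.21 (SE; edgeR adjusted p = 0.385), and without LLC 1 it was 0.40 ± 0.15 (SE; edgeR adjusted p = 0.0973). With all samples limma voom gave 0.47 and an adjusted p of 0.0104, still under 1.5-fold. The same samples that were highest for Ddit4 and Eif4ebp1 were thus the lowest for Deptor. Exons of Deptor overlap an antisense gene over 303 bases, and whether these counts were made by strand was not settled.

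Akt1s1 (ENSMUSG00000011096, chromosome 7, 44848991 to 44855421, plus strand), the gene of PRAS40, a raptor-binding inhibitor released by Akt, showed a small difference with little spread. Control values were 80.9, 73.7, 72.7 and 73.2 CPM, and LLC values ran from 78.9 CPM in LLC 4 over a median of 85.4 to 105 CPM in LLC 5. The only overlap came from Control 1, which exceeded LLC 4. This came to a log2 fold change of 0.22 ± 0.09 (SE; edgeR adjusted p = 0.153). Exons of Akt1s1 overlap an antisense gene over 89 bases.

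Of the subunit genes, Rictor had a larger estimate than Mtor and Rptor. Mtor (ENSMUSG00000028991, chromosome 4, 148448611 to 148557683, plus strand) measured 39.9, 44.8, 42.3 and 45.2 CPM in Control and ran in LLC from 35.4 CPM in LLC 5 over a median of 43.5 to 64.1 CPM in LLC 1. Apart from LLC 1 and LLC 5, at opposite ends, the LLC values were 40.9 to 45.9 CPM. The log2 fold change was 0.08 ± 0.14 (SE; edgeR adjusted p = 0.730), and without LLC 1 it turned to -0.035 ± 0.082 (SE; edgeR adjusted p = 0.810).

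Rptor (ENSMUSG00000025583, chromosome 11, 119602905 to 119899576, plus strand), which gives mTORC1 its substrate-binding subunit, was the only one of the 10 genes with a negative estimate. It measured 35.8, 33.6, 35.5 and 39.7 CPM in Control and 28.2 CPM in LLC 1, a median of 33.1 and 36.4 CPM in LLC 2 at the top of the LLC range. The groups overlapped, with 3 LLC samples below every Control sample. Its estimate was -0.15 ± 0.09 on the log2 scale (SE; edgeR adjusted p = 0.298).

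Rictor (ENSMUSG00000050310, chromosome 15, 6708379 to 6800401, plus strand) measured 11.4, 11.6, 13.2 and 13.6 CPM in Control and ran in LLC from 12.05 CPM in LLC 5 over a median of 17.04 to 17.9 CPM in LLC 6. All LLC samples but LLC 5 exceeded every Control sample. Its log2 fold change of 0.38 ± 0.12 (SE), or 1.30-fold, had the smallest p of the 10 genes (unadjusted p = 0.00869, edgeR adjusted p = 0.0823). The adjusted p was 0.0380 in the DESeq2 Wald test and 0.00591 in limma voom, below 0.05 in both, as for 11.9% and 18% of all genes, while the size stayed under 1.5-fold. Without one sample at a time the edgeR adjusted p ranged from 0.0179 to 0.208.

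Rps6kb1 (ENSMUSG00000020516, chromosome 11, 86498871 to 86544805, minus strand), the gene of the S6 kinase that mTORC1 activates, measured 32.5, 36.7, 33.2 and 32.3 CPM in Control. The LLC values ran from 30.4 CPM in LLC 5 over a median of 35.9 to 42.7 CPM in LLC 1 and spanned the Control range on both sides. Its estimate was 0.11 ± 0.10 on the log2 scale (SE; edgeR adjusted p = 0.488). Exons of Rptor and Rps6kb1 overlap antisense genes over 84 and 155 bases.

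**Figure D2:**
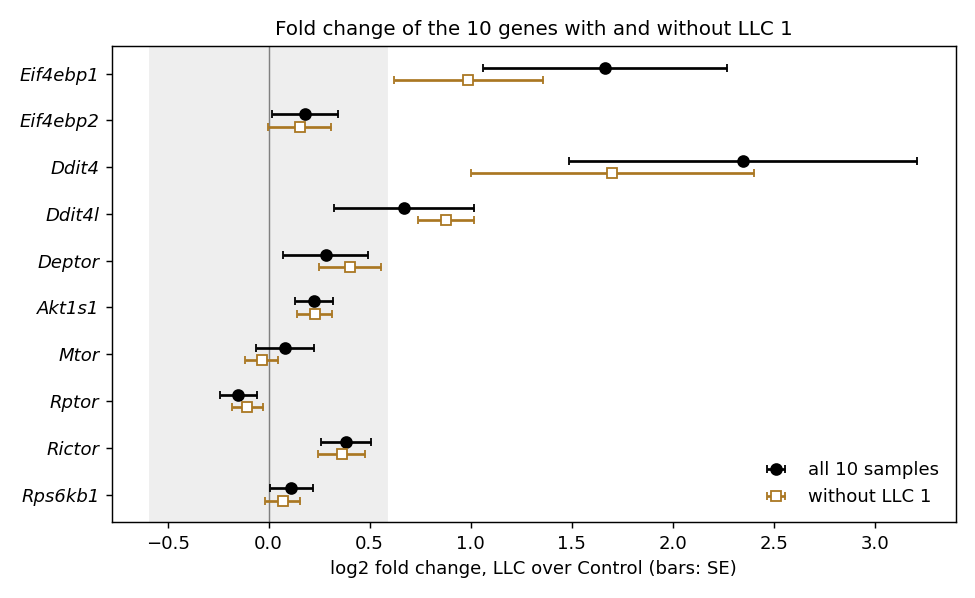
Log2 fold change of LLC over Control with its SE for each gene, from edgeR with all 10 samples (black circles) and without LLC 1 (open squares). The shaded band lies within 1.5-fold. Without LLC 1 the estimates of Eif4ebp1 and Ddit4 shrink to 0.99 and 1.70, that of Ddit4l grows to 0.88 with a smaller SE, and Mtor crosses 0.

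Ratios within a library do not depend on how libraries are scaled, and 3 were tested. The Rptor to Rictor ratio, which sets the defining subunit of mTORC1 beside that of mTORC2, was lower in LLC. Its log2 value was 1.65, 1.54, 1.43 and 1.55 in Control, a mean of 1.54 ± 0.09 (SD, n = 4), and ran from 0.67 in LLC 1 over a median of 1.00 to 1.33 in LLC 5, a mean of 1.01 ± 0.24 (SD, n = 6). All 6 LLC samples lay below every Control sample. The means were apart by -0.53, with p = 0.00952 in a two-sided exact permutation test, which is as low as 4 against 6 samples can go, and an adjusted p of 0.0286 over the 3 ratios (Benjamini-Hochberg). Per kilobase of exon, with all annotated exons of a gene merged, Rptor stood at 3.65 times Rictor in Control and 2.54 times in LLC. The ratio shows unequal change of the pair and not which member moved. Of single tested genes, 16% were without overlap between groups, and the share among other pairs of genes was not tested. With medians in place of means the exact permutation p was 0.0286, as low as medians of 4 against 6 samples can go. The adjusted p was 0.0857, so the call was lost. With any 1 Control sample left out, the exact permutation p was 0.0238 each time, as low as 3 against 6 samples can go. The adjusted p was then 0.0714. With the other 2 ratios not passing, neither these fits nor the test with medians could have kept the call.

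The Eif4ebp1 to Eif4ebp2 ratio split the LLC samples. On the log2 scale it was -0.58, -0.79, -0.55 and -0.94 in Control, 2.16 in LLC 1 and 1.98 in LLC 5, and -1.14 to -0.24 in the other LLC samples. Per kilobase, Eif4ebp1 was 1.37 to 1.80 times Eif4ebp2 in Control, 11.7 times in LLC 1 and 10.4 times in LLC 5. The difference in mean log2 ratio of 1.00 was smaller than the SD of 1.42 within LLC (exact permutation test, two-sided, p = 0.219, adjusted p = 0.329, n = 4 and 6). It was 0.62 without LLC 1 and 0.41 with medians. The Ddit4 to Ddit4l ratio had a log2 value of -6.22 to -4.11 in Control and -6.46 to 0.27 in LLC. Per kilobase, Ddit4 stood at 0.0223 to 0.0962 times Ddit4l in Control, and in LLC 1 alone it exceeded Ddit4l, by 2.00 times. The difference of 1.22 was smaller than the SD of 2.33 within LLC (exact permutation test, two-sided, p = 0.390, adjusted p = 0.390, n = 4 and 6). It was 0.40 without LLC 1 and 0.44 with medians.

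**Figure D3:**
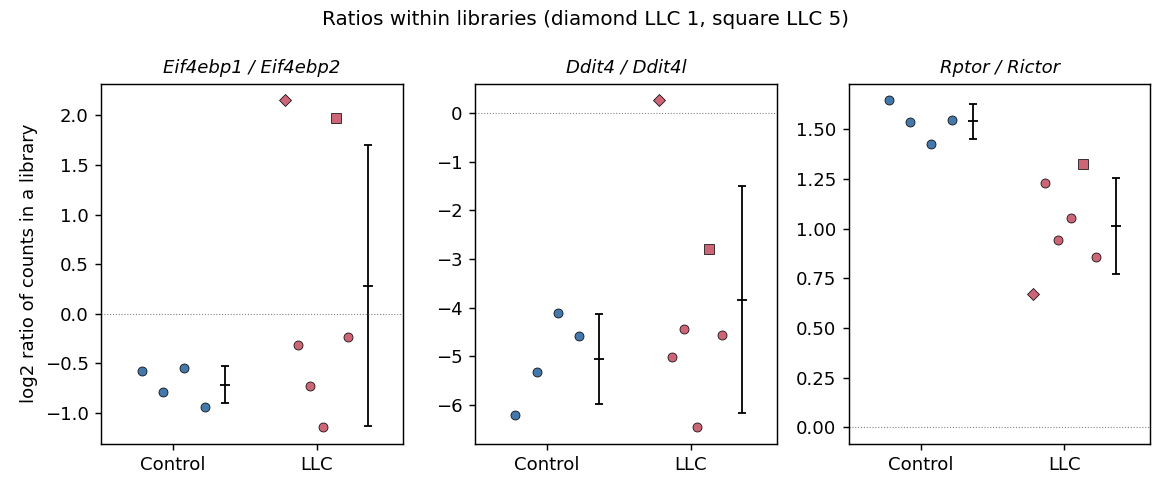
Log2 ratio of the counts of a pair of genes in each library, with the mean and SD of each group in black (diamond, LLC 1, square, LLC 5). All 6 LLC values of Rptor over Rictor lie below the lowest Control value of 1.43, and LLC 1 and LLC 5 stand above the rest for Eif4ebp1 over Eif4ebp2.

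The promoters of Rptor and Rictor are shown because this pair gave the ratio that differed between groups. The Rptor window is chr11:119602655-119602904 and the Rictor window chr15:6708131-6708380, both on the plus strand, with capitals as above.
Rptor: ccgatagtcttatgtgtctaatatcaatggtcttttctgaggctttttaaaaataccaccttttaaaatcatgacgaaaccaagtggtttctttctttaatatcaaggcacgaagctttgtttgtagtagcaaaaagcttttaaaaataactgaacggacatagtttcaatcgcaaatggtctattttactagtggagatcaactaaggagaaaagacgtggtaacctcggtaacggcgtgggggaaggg
Rictor: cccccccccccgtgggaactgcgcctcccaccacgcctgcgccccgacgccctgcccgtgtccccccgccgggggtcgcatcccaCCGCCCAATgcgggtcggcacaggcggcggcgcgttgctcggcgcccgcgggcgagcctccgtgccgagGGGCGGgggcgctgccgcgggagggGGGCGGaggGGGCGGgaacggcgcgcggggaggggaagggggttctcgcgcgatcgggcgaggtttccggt

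The GC content was 37.6% with 9 CpG pairs for Rptor and 81.2% with 40 CpG pairs for Rictor. The Rictor window held 4 GC boxes and 1 CCAAT box, and that of Rptor held neither. Among the 8 windows, the only match to the FoxO, ATF4, glucocorticoid receptor, STAT or E-box letters was a STAT match 228 bases before the start of Mtor.

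Transcript levels within Control were ordered per kilobase of exon, a scale that allows for gene length. Lengths were those of all annotated exons of a gene merged. Which of its transcripts the muscle made was not tested, and the SD between mice does not cover an error of length. Ddit4l was the most abundant at 90.6 ± 2.61 CPM per kilobase (SD, n = 4), followed by Akt1s1 at 24.5 ± 1.27, Eif4ebp1 at 13.4 ± 0.436, Eif4ebp2 at 8.38 ± 0.974, Deptor at 6.77 ± 0.787 and Ddit4 at 5.24 ± 3.08 CPM per kilobase. Below these stood Mtor at 4.26 ± 0.246, Rps6kb1 at 3.89 ± 0.238, Rptor at 2.68 ± 0.190 and Rictor at 0.734 ± 0.0662 CPM per kilobase. Ddit4 did not differ from its neighbors Deptor and Mtor beyond its own SD, and every other pair of neighbors differed by more than the SD of either gene. In LLC the mean of Eif4ebp1 was 42.5 ± 43.0 CPM per kilobase (SD, n = 6), second to Ddit4l at 144 ± 61.3. It exceeded Akt1s1 at 28.6 ± 2.96 by less than its own SD. The mean of Ddit4 was 26.6 ± 29.6, which differed from Akt1s1 by less than either SD.

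The spread between LLC mice set Eif4ebp1 and Ddit4 apart from the other genes. For all 10 genes the LLC samples had a larger SD of log2 CPM than the Control samples, as did 85.1% of all tested genes. The LLC value was 1.77 for Ddit4, 1.26 for Eif4ebp1 and 0.90 for Ddit4l, and 99.9%, 99.4% and 97.1% of all tested genes had a smaller one. For Rptor, Akt1s1 and Rps6kb1 it was 0.13, 0.14 and 0.18, below the median of 0.28 over all tested genes. Within LLC the order from high to low was LLC 1, LLC 5, LLC 6, LLC 3, LLC 2 and LLC 4 for both Ddit4 and the first principal component, and Eif4ebp1 differed from it only in placing LLC 2 above LLC 3. What part the share of mitochondrial counts and the level of muscle fiber markers had in this was not tested.

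Genes whose profile lay nearest to these 2 were sought among 10383 tested genes with an average log2 CPM of at least 1, by the root mean square difference in log2 CPM from the Control mean over the 10 samples. Nearest to Eif4ebp1 were Hmox1, which encodes heme oxygenase, Tekt1, Arrdc3, Hgs and Retreg1, with differences of 0.20 to 0.28. Hmox1, for example, stood at 3.89 to 4.16 CPM in Control, 37.4 CPM in LLC 1, 21.5 CPM in LLC 5 and 4.29 to 9.89 CPM in the other LLC samples. Nearest to Ddit4 were Cebpd, which encodes a C/EBP transcription factor, the metallothionein gene Mt1, Aacs, the muscle ubiquitin ligase gene Trim63 and 2410006H16Rik, with differences of 0.61 to 0.69. Cebpd stood at 4.00 to 6.57 CPM in Control, 81.7 CPM in LLC 1, 66.1 CPM in LLC 5 and 5.29 to 18.6 CPM in the other LLC samples. None of these 10 neighbors was past the threshold in edgeR, which 5.63% of all tested genes were. They were chosen for profiles like those of 2 genes that did not pass, so this count tells nothing further.

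Of 69 other genes of the mTOR pathway, 67 were tested and none was past the threshold, against 5.63% of all tested genes. By an unadjusted p of 0.05 or less, 11 were higher and 2 lower, or 19.4% of the list, where 12.7% of all genes were higher and 14.6% lower. By adjusted p alone in edgeR 2 were higher, Akt2 and Ulk1, against 2.14% of all genes higher and 6.99% in either direction. The DESeq2 Wald test placed 1 past the threshold, Prkag2, and limma voom and the fit without LLC 1 each placed 2, Prkag2 and Sesn1. The median log2 fold change of the list was 0.08, with 44 estimates above 0 and 23 below. The groups did not overlap for 8 of the 67 genes, higher in LLC, and for 3, lower in LLC. Of all tested genes, 16% were without overlap in either direction, so such separation was about as common in the list. Akt2, Prkag2, Sesn1, Lars, Ulk1 and Eif4e, described below, are among the genes of the list without overlap.

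Of the upstream regulators, 17 genes were tested. Akt2, the Akt isoform of insulin signaling in muscle, was higher in every LLC sample, with a mean of 316 ± 27.1 CPM (SD, n = 6) against 239 ± 10.5 CPM (SD, n = 4), or 0.40 ± 0.09 on the log2 scale (SE; edgeR adjusted p = 0.0221, and 0.00821 to 0.0910 with 1 sample left out at a time). Prkag2, which encodes a regulatory subunit of AMPK, was lower in every LLC sample, at 14.1 ± 0.728 against 7.07 ± 3.25 CPM, with a log2 fold change of -0.998 ± 0.32 (SE; edgeR adjusted p = 0.0835). Without LLC 1 it was -0.81 and passed (edgeR adjusted p = 0.0162). Exons of Prkag2 overlap 2 antisense genes, over 937 bases in sum, and whether counting was by strand was not settled. The estimates of Rhebl1, a Rheb homolog, and Akt1 were 0.53 ± 0.21 and 0.41 ± 0.34 (SE), and that of Akt1 rested on LLC 1, which had 200.04 CPM against 50.4 to 74.3 CPM in the other LLC samples, and was -0.030 without it.

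Of the amino acid sensors and GATOR subunits, 15 genes were tested. Sesn1, which encodes sestrin 1, an inhibitor of mTORC1 upstream of the Rag GTPases, had the greatest estimate of the list, 1.76 ± 0.61 on the log2 scale (SE; edgeR adjusted p = 0.102). It stood at 13.1 to 15.5 CPM in Control and 17.1 to 152.6 CPM in LLC, where LLC 1 and LLC 5 were again the highest. Every LLC sample was above every Control sample, and without LLC 1 the log2 fold change was 0.92 and passed (edgeR adjusted p = 0.0353). Castor1 and Lars had estimates of -0.40 ± 0.26 and 0.37 ± 0.16 (SE) and did not pass. Lars stood at 38.7 to 42.86 CPM in Control and 42.98 to 74.5 CPM in LLC, without overlap, while the groups overlapped for Castor1.

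Of the substrates and translation outputs, 16 genes were tested, with 14 estimates above 0, a median log2 fold change of 0.25, and 6 higher and 1 lower at an unadjusted p of 0.05 or less, beside 12.7% higher and 14.6% lower of all genes. Ulk1, the autophagy kinase that mTORC1 inhibits, was 0.45 ± 0.12 higher on the log2 scale (SE; edgeR adjusted p = 0.0478, and 0.0214 to 0.155 with 1 sample left out at a time). Eif4a1 and Eif4b, which encode the helicase of cap-dependent initiation and its cofactor, had estimates of 0.53 ± 0.28 and 0.47 ± 0.16 (SE), and without LLC 1 that of Eif4a1 was 0.28 and that of Eif4b 0.34. Eif4e, the cap-binding target of the 4E-BP proteins, went the other way, with every LLC sample below every Control sample. It averaged 68.9 ± 12.2 CPM in LLC (SD, n = 6) and 91.3 ± 2.41 CPM in Control (SD, n = 4), or -0.41 ± 0.13 on the log2 scale (SE; edgeR adjusted p = 0.0828).

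The remaining groups varied least. The 13 genes of the Rag GTPases, Ragulator and folliculin had a median log2 fold change of 0.0060 and none at an unadjusted p of 0.05 or less, with Lamtor4, Flcn and Rragc furthest from 0 at -0.19, 0.17 and 0.15, or -0.079, 0.11 and 0.063 without LLC 1. The 6 tested genes of other complex subunits and assembly factors had a median of -0.03, with Tti2, Tti1 and Mlst8 at 0.22, -0.17 and -0.15, or 0.14, -0.11 and -0.070 without LLC 1. Of 2 genes too low to test, Prr5l and Eif4ebp3, neither is compared.

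**Figure D4:**
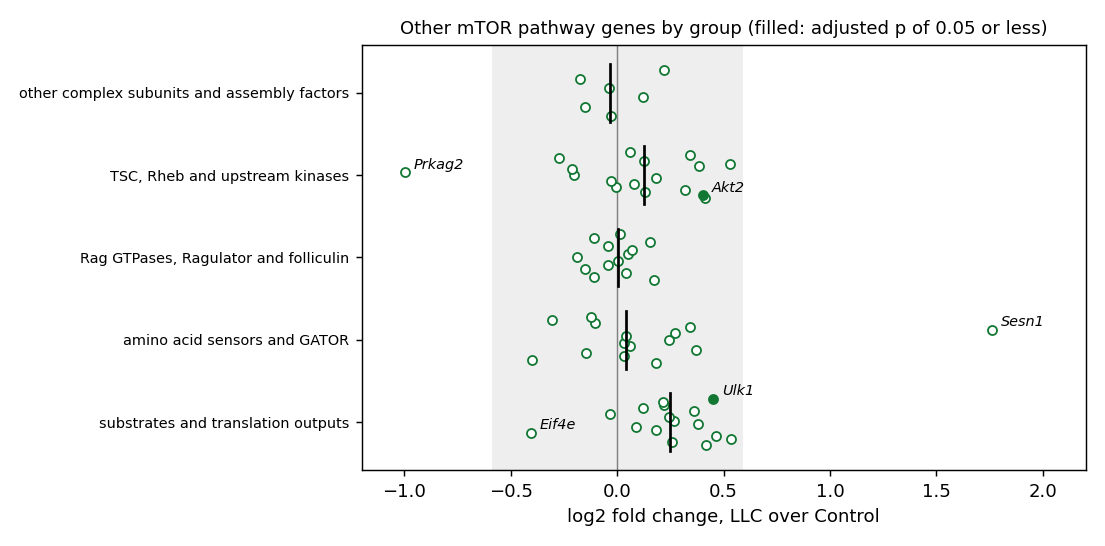
Log2 fold change of LLC over Control for the 67 tested pathway genes other than the 10, by group, with the group median as a black line and a shaded band within 1.5-fold. Filled points have an edgeR adjusted p of 0.05 or less (Akt2 and Ulk1), and Sesn1 and Prkag2 are the only genes outside the band.

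These are whole-muscle libraries, in which fewer cells of a type and less RNA per cell cannot be told apart. Summed markers of some other cell types separated the groups, and those of others did not. The summed level of 8 neutrophil markers was 34.3 to 75.5 CPM in LLC and 1.27 to 2.62 CPM in Control, with 8 of 8 past the threshold and higher, and that of 6 fibroblast markers was 101.3 to 128.6 CPM against 265 to 336 CPM, with 5 of 6 lower and 1 higher. Sums of satellite cell markers (1.29 to 2.37 against 3.19 to 3.75 CPM, 2 of 2 lower) and Schwann cell markers (7.30 to 12.2 against 17.2 to 19.2 CPM, 1 of 2 lower) lay below Control, and those of erythroid markers (68.3 to 109 against 42.3 to 64.2 CPM, 2 of 3 higher) above it. The groups overlapped for macrophage markers (5.68 to 12.4 against 9.53 to 16.2 CPM, 1 of 5 tested lower). They also overlapped for endothelial markers (225 to 268 against 224 to 300 CPM, 1 of 5 lower). For adipocyte markers the sums were 1.52 to 3.39 against 0.876 to 6.22 CPM, with 0 of 2 tested past the threshold. Among the LLC samples, LLC 1 had the lowest Schwann cell sum, 7.30 CPM, and the highest adipocyte sum, 3.39 CPM. Its neutrophil and fibroblast sums, 43.0 and 113.5 CPM, lay within the range of the other LLC samples. The part of these cell types in the results above was not tested.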

How the data were processed

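Paired-end reads of stranded total RNA libraries were mapped by the authors to mm10 with TopHat2 and counted per gene with HTSeq. The deposited values are raw counts per Ensembl identifier, not normalized, 1 file per sample. The methods give HTSeq's default settings, which count by strand, but for RefSeq genes. The deposited tables list Ensembl identifiers, so which annotation release and settings made them was not settled. Symbols, positions and exonic lengths came from GENCODE M21 on the same build. All 39179 rows carried an Ensembl gene identifier, and 37693 of these were in GENCODE M21.

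Genes were kept by filterByExpr (count minimum 10), scaled by TMM, and fitted with the quasi-likelihood model of edgeR 4.0.16 in R 4.3.3, in which group was the sole covariate. The SE was derived from the F statistic. Log2 CPM used a prior count of 2, and ratios a pseudocount of 0.5. Ratios were compared by an exact two-sided permutation test over all 210 assignments of samples to groups. DESeq2 1.42.0, limma 3.58.1 voom, other scalings and filters, the replicate block and each sample left out were alternatives. Named genes were the 10 members, pathway genes past the threshold or with the 3 greatest estimates of their group, and nearest profiles. Akt2, Eif4e, Eif4ebp3, Prkag2 beyond its estimate, and Prr5l were outside this rule and were added after their values were seen. The members, lists and motifs were chosen with earlier results of these data known. The smallest count of any member in any sample was 65. Counting error aside, arms of 4 and 6 mice limit precision, and a floor of 3 counts was 0.141 to 0.180 CPM. No 2 libraries of a group agreed within sampling noise (chi-square per degree of freedom of at least 3.71).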

Additional observations from a re-analysis of the deposited data

Results flagged for a closer look

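For the CPM of the 10 genes and for the 3 log2 ratios, each of 26 sets of Control or LLC values was searched for a highest or lowest sample standing apart, measured as its distance to the next sample divided by the full range (Dixon's gap ratio). There were 3 such samples, where chance at 1 in 20 gives 1.3. Eif4ebp2 in LLC 5, at 33.2 CPM, lay below the other LLC samples with a gap ratio of 0.736. Mtor in LLC 1, at 64.1 CPM, lay above them with a gap ratio of 0.636. Akt1s1 in Control 1, at 80.9 CPM, lay above the other Control samples with a gap ratio of 0.879.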

How the results depend on the processing

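Of all genes, 715 passed the threshold, and 475 did when each sample had to hold at least 10 counts, which left fewer genes to test. Without 1 sample at a time the count ranged from 415 to 966. Of the 10 members 0 passed, and 1 (Ddit4l) did under limma voom; without 1 sample at a time the count was 0 to 1, with the 1 in the fit without LLC 1. Of the pathway genes 0 passed, 1 did under the DESeq2 Wald test, 2 under limma voom and 2 by adjusted p with no minimum fold, and 0 to 2 without 1 sample at a time. With the replicate number as a block 112 of all genes passed, and 0 members and 0 pathway genes. The numbers belong to different animals, and the correlation of same-numbered deviations ran from -0.081 to 0.126, so the samples share only a number; LLC 5 and LLC 6 share none with a Control sample. The log2 fold change of Mtor was -0.035 without LLC 1 and ran up to 0.14 (without LLC 5) with other samples left out; the cause was not tested. The Rptor to Rictor difference was -0.54 with medians, no longer past the threshold, and -0.59 to -0.46 without 1 sample at a time, where a design with 3 Control samples cannot give an exact permutation p under 0.0238. The other ratios did not pass under any setting run. The other scalings and filters moved no member past the threshold. Each member had at least 65 counts in every sample, and the part of depth in the lack of calls was not tested.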
